A study of Mus musculus with 6 samples.

Results

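A set of 10 genes of the heme oxygenase and NRF2 antioxidant system were described across mouse embryo brains with and without E4f1, a zinc finger transcription factor. They were chosen by symbol, as NRF2, its inhibitor, several of its antioxidant targets and both heme oxygenases, and make up 10 of the 24848 genes in the expression tables. All 10 were expressed highly enough to be tested, as were 15848 genes in all. The samples were brains of embryos at stage E14.5, 3 labelled wild type (WT) and 3 labelled E4f1 KO (KO), each sequenced once as stranded, paired mRNA libraries with totals of 42113465 to 74064707 expected counts. The labels name no strain, allele, Cre driver, litter or treatment, and do not say which cells of the KO brain lack E4f1.

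NRF2, encoded by Nfe2l2, is a transcription factor that is held at low levels by KEAP1, which hands it to a CUL3 ubiquitin ligase for destruction. When electrophiles or oxidants modify KEAP1, NRF2 escapes, pairs with a small MAF protein and binds antioxidant response elements in genes for glutathione synthesis, thioredoxin reduction and quinone removal. Much of this control acts on the NRF2 protein, which mRNA levels do not show. Hmox1, the inducible heme oxygenase, answers to NRF2 and to release of the repressor BACH1, and in mouse its main response elements lie in enhancers far upstream of the gene. Hmox2 encodes the constitutive heme oxygenase, which is abundant in brain.

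The promoters of 5 genes are shown because they carry the letters searched for and belong to genes whose levels are set side by side further on. Antioxidant response elements were searched as TGACNNNGC and TGAGNNNGC, and the C/EBP-ATF response element, read by ATF4 and its relatives, as TGATGNAA, each on both strands in the 250 bases before a transcript start listed by RefSeq. The first form was found in 10.2% of all 32851 such windows in the RefSeq table of GRCm38.p6, the second in 14.4%, and the C/EBP-ATF element in 3.45%. Of the 10 genes, 7 matched an entry of that table, with 11 windows, and Hmox1, Gclc and Gsr did not. An antioxidant response element in either form was found in 4 of the 11 windows, 1 each of Gclm, Txnrd1, Srxn1 and Nfe2l2, and in 23% of all windows. The other 2 windows of Txnrd1 and those searched for Hmox2, Nqo1 and Keap1 held neither form. The core of the E4F1 site, TGACGTAA, was searched as well and was found in 0.447% of all windows. None of the 11 windows held it or the C/EBP-ATF element. A listed start need not be the outermost start of the gene. The 3 Hmox2 starts lie 15252 to 30585 bases inside the gene, so the bases before its outermost start were not searched. The starts lie 70 bases inside the gene for Gclm, 25255 for the Txnrd1 window with the match and 55474 for Slc7a11. Srxn1 held 2, beginning 158 and 45 bases before its start. The windows below read 5′ to 3′ on the strand of the gene. Capitals mark the antioxidant response elements in the first 3 and the C/EBP-ATF elements in the last 2.
Srxn1, chr2:152105274-152105523, plus strand: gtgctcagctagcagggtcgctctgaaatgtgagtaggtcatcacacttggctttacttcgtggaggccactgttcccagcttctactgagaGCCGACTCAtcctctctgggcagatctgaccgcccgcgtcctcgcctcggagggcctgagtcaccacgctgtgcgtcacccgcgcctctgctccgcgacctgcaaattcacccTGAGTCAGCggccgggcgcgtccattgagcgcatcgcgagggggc
Gclm, chr3:122245307-122245556, plus strand: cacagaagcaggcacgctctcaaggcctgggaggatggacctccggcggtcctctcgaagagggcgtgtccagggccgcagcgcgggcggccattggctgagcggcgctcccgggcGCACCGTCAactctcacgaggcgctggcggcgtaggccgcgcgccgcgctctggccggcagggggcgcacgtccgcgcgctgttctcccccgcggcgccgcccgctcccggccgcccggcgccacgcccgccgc
Nfe2l2, chr2:75704664-75704913, minus strand: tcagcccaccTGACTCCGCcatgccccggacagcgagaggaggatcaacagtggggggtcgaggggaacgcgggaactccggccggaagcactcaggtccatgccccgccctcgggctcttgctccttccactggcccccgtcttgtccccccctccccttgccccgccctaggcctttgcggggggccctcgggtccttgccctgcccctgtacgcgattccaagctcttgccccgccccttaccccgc
Chac1, chr2:119350992-119351241, plus strand: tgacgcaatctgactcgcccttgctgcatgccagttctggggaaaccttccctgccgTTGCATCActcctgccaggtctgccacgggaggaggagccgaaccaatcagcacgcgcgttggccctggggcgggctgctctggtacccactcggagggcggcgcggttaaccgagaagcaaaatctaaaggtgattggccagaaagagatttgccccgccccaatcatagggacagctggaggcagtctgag
Slc7a11, chr3:50443614-50443863, minus strand: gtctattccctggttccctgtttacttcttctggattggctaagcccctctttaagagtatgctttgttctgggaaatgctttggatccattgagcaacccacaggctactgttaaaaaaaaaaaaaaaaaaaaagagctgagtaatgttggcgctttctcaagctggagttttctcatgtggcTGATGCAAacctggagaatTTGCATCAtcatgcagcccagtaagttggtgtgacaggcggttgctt

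In KO brains Hmox1 rose and no other gene of the 10 passed the test. Levels between genes are compared in TPM, which is scaled to transcript length, and levels of 1 gene between libraries in CPM, read pairs scaled to a common library total with TMM. A change was called at an adjusted p below 0.05 in edgeR's quasi-likelihood test. Of the 15848 tested genes, 0.511% were called higher and 0.492% lower. DESeq2, run as an alternative, called 811 of them higher and 714 lower. E4f1 itself lay between 20.7 and 21.6 CPM in WT and between 6.92 and 7.12 CPM in KO, lower in every library labelled KO, and transcripts of a deleted allele are not separated from intact ones by these counts. Neural markers were present in every library, with 10 of them summing to between 7422 and 8165 CPM in WT and between 5877 and 6367 CPM in KO (none called by edgeR, 4 lower by DESeq2). For Tubb3, Dcx, Stmn2, Map2 and Elavl3, 5 of the 10, the groups did not overlap with KO lower, against 13% of all tested genes. These 5 had an unadjusted edgeR p below 0.05. Sox2, Nes, Pax6, Hes5 and Neurod6 overlapped. The libraries also differed in midbrain genes. A score of En1, En2 and Pax5 (mean log2 CPM) was 4.12, 3.18 and -0.23 in WT 1 to WT 3 and between -3.27 and -1.41 in KO.

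**Figure D1:**
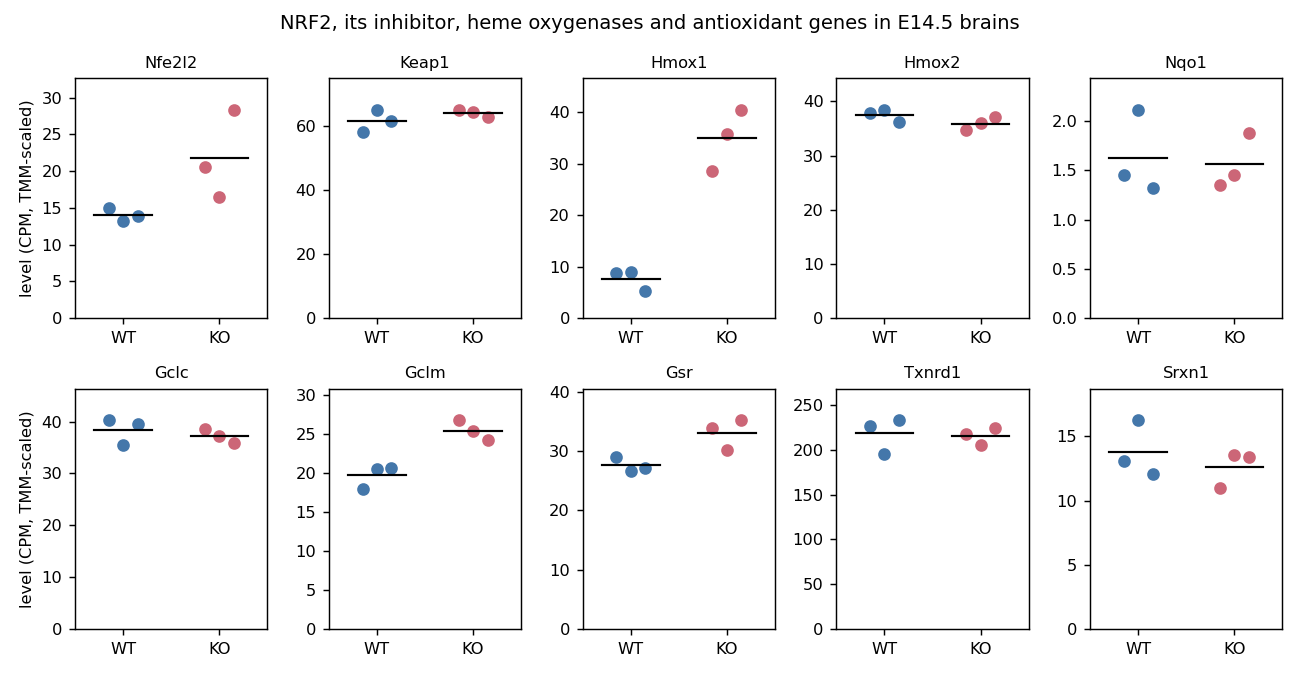
Level of each of the 10 genes in CPM (linear axes from 0) in the 3 WT and 3 KO brains. Points are libraries, in the order of their replicate number, and bars are group means. Hmox1 sits between 5.26 and 8.98 CPM in WT and between 28.6 and 40.5 CPM in KO, while Hmox2, Keap1, Gclc, Txnrd1, Srxn1 and Nqo1 overlap between the groups.

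Hmox1 (chromosome 8, 75093618 to 75100593, GRCm38), the enzyme that opens the heme ring and releases iron, carbon monoxide and biliverdin, stood at 8.74, 8.98 and 5.26 CPM in WT 1 to WT 3. It stood at 28.6, 35.7 and 40.5 CPM in KO 1 to KO 3. Every KO brain was at least 3 times as high as the highest WT brain. The groups did not overlap, which held for 14.6% of all tested genes in the direction of higher KO. These levels rested on 651, 369 and 350 read pairs in WT and on 2044, 2037 and 2066 in KO. Hmox1 rose 4.56-fold (log2 fold change 2.19 ± 0.24 SE, 95% interval 1.60 to 2.78, n = 3 per group, edgeR adjusted p = 0.0182), which ranked it the 68th of all tested genes by p.

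The size of this change varied little when single libraries were left out, while its call was mostly lost. With 1 library left out, the log2 fold change of Hmox1 lay between 1.98 and 2.32, and the edgeR adjusted p between 0.0299 and 0.0706. It stayed below 0.05 only without WT 3, the WT brain with the lowest Hmox1 level. Leaving out WT 1 or WT 2 gave an adjusted p of 0.0674 or 0.0527, and leaving out KO 1, KO 2 or KO 3 gave 0.0706, 0.0601 or 0.0556. With the midbrain score as a covariate the log2 fold change was 3.08 (edgeR adjusted p = 0.234), and in a fit of the 4 libraries with replicate numbers 1 and 2 it was 1.86 (adjusted p = 0.0721). No gene of the whole table was called by edgeR in either of these 2 fits, with 745 and 1546 at an unadjusted p below 0.05. E4f1 itself was among the genes not called, with log2 fold changes of -1.65 and -1.57 (edgeR adjusted p = 0.235 and 0.0721). The midbrain score did not overlap between the groups, so it and the KO label cannot be fully told apart in the first fit.

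Hmox2 (chromosome 16, 4726361 to 4766742) stood at 37.8, 38.5 and 36.1 CPM in WT and at 34.7, 35.9 and 37.0 CPM in KO. The groups overlapped, and the spread of each group was small, 3.25% and 3.24% of the mean (coefficient of variation, n = 3). Its log2 fold change was -0.06 ± 0.06 (SE), with a 95% interval from -0.22 to 0.09 (edgeR adjusted p = 0.620). Per length, the WT brains thus held far more Hmox2 than Hmox1, with a Hmox1 to Hmox2 ratio of TPM values of 0.174, 0.177 and 0.110. In KO that ratio was 0.623, 0.749 and 0.822. The mean log2 ratio was higher by 2.27 in KO (-2.73 ± 0.39 in WT and -0.46 ± 0.20 in KO, SD, n = 3), at an exact two-sided permutation p = 0.1, the smallest that 3 against 3 can give.

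Of NRF2 and its inhibitor, Nfe2l2 (chromosome 2, 75675513 to 75704663) stood at 14.97, 13.3 and 13.9 CPM in WT and at 20.5, 16.4 and 28.4 CPM in KO. The groups did not overlap, yet the KO brains differed among themselves more than the WT brains, with a coefficient of variation of 27.9% against 6.09%. Its log2 fold change of 0.63 ± 0.20 (SE, 95% interval 0.14 to 1.12) did not pass the edgeR test (adjusted p = 0.179, unadjusted p = 0.0189), and DESeq2 called it higher (adjusted p = 0.0461). Without KO 3, the library with the highest value, the log2 fold change was 0.39 (edgeR adjusted p = 0.328). KO 3 also had the highest summed level of meninges markers, 5256 CPM, against 461 to 2672 CPM in the other 5 libraries. The part of those cells in the Nfe2l2 value was not tested.

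Keap1 (chromosome 9, 21229730 to 21239332), which captures NRF2 and senses electrophiles, stood at 58.1, 65.2 and 61.7 CPM in WT and at 65.1, 64.3 and 62.8 CPM in KO. The groups overlapped, and the log2 fold change was 0.06 ± 0.07 (SE, 95% interval -0.10 to 0.21, edgeR adjusted p = 0.661). Keap1 mRNA exceeded that of Nfe2l2 per length in every library. The Nfe2l2 to Keap1 ratio of TPM values was 0.360, 0.283 and 0.314 in WT and 0.439, 0.362 and 0.632 in KO. The mean log2 ratio was higher by 0.55 in KO (exact two-sided permutation p = 0.1, the smallest possible), and by 0.33 when KO 3 was left out. The separation was narrow, between WT 1 and KO 2, and with CPM in place of TPM the difference was 0.54 at an exact permutation p = 0.2.

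Glutamate-cysteine ligase makes the first bond of glutathione and has a catalytic subunit, Gclc, and a modifier subunit, Gclm. Gclm (chromosome 3, 122245487 to 122267215) stood at 17.9, 20.5 and 20.6 CPM in WT and at 26.7, 25.3 and 24.2 CPM in KO. All KO brains lay above all WT brains, and the log2 fold change was 0.37 ± 0.09 (SE, 95% interval 0.15 to 0.59). The difference did not pass the edgeR test (adjusted p = 0.119, unadjusted p = 0.00558), and DESeq2 called it higher (adjusted p = 0.0122). In each of the 6 fits without 1 library the fold change was positive, between 0.30 and 0.41, and none was called.

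Gclc (chromosome 9, 77754535 to 77794489) stood at 40.2, 35.5 and 39.5 CPM in WT and at 38.6, 37.1 and 35.9 CPM in KO. Its groups overlapped, with a log2 fold change of -0.05 ± 0.08 (SE, 95% interval -0.23 to 0.14, edgeR adjusted p = 0.765). The Gclm to Gclc ratio of TPM values was 0.771, 1.004 and 0.910 in WT and 1.201, 1.19 and 1.17 in KO, so that the modifier subunit was the more abundant in all 3 KO libraries, and in WT 2 alone of the WT libraries, there by a ratio near 1. The mean log2 ratio was higher by 0.42 in KO, from -0.17 ± 0.19 to 0.25 ± 0.02 (SD, n = 3, exact two-sided permutation p = 0.1, the smallest possible). Adjusted over the 3 ratios compared, each p stayed at 0.1.

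Gsr (chromosome 8, 33653238 to 33698162), which returns oxidised glutathione to its reduced form, stood at 29.0, 26.7 and 27.2 CPM in WT and at 34.0, 30.1 and 35.2 CPM in KO. The groups did not overlap, and the log2 fold change of 0.26 ± 0.09 (SE, 95% interval 0.05 to 0.47) did not pass the test (edgeR adjusted p = 0.184, unadjusted p = 0.0206, DESeq2 adjusted p = 0.0934).

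Txnrd1 (chromosome 10, 82833951 to 82897724), the cytosolic selenoenzyme that keeps thioredoxin reduced, was the most abundant of the 10 per length. It stood at 227, 196 and 233 CPM in WT and at 217, 205 and 225 CPM in KO, with overlapping groups and a log2 fold change of -0.02 ± 0.08 (SE, 95% interval -0.22 to 0.18, edgeR adjusted p = 0.915). Srxn1 (chromosome 2, 152105524 to 152111376) encodes sulfiredoxin, which repairs overoxidised peroxiredoxins. Srxn1 stood at 13.1, 16.2 and 12.1 CPM in WT and at 10.98, 13.6 and 13.4 CPM in KO. Its promoter, printed above, holds the 2 antioxidant response elements, and its log2 fold change was -0.13 ± 0.15 (SE, 95% interval -0.49 to 0.24, edgeR adjusted p = 0.665).

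Nqo1 (chromosome 8, 107388225 to 107403205), a quinone reductase often used as a readout of NRF2, was the least abundant of the 10. It stood at 1.45, 2.12 and 1.32 CPM in WT and at 1.36, 1.45 and 1.88 CPM in KO, from 83 to 108 read pairs per library. The groups overlapped, and the log2 fold change was -0.06 ± 0.27 (SE, edgeR adjusted p = 0.926). Its 95% interval ran from 0.617-fold to 1.502-fold, and the coefficient of variation was 26.1% in WT and 17.8% in KO.

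**Figure D2:**
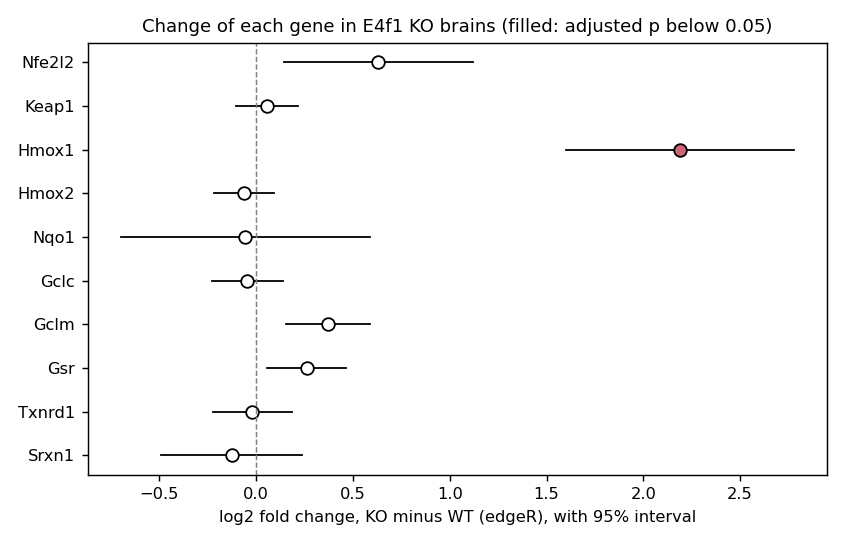
Log2 fold change of KO against WT (x axis) for each of the 10 genes, with the 95% interval of the edgeR fit. Hmox1 alone is filled, at 2.19, and the intervals of Nfe2l2, Gclm and Gsr, none of them called, lie above 0.

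Over the 10 genes the fold changes were therefore uneven. Their median log2 fold change was 0.02, against 0.00 over all tested genes, with 5 positive and 5 negative values. Hmox1, Nfe2l2, Gclm and Gsr had no overlap between the groups with KO higher, 4 of 10 against 14.6% of all tested genes, and none was wholly lower in KO. In either direction 27.6% of all tested genes had no overlap. The same 4 had an unadjusted edgeR p below 0.05 in the higher direction, which 10.3% of all tested genes had (9.31% in the lower direction). Since the 10 genes were chosen with earlier results of these data known, these shares are a description and were not tested.

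Ordered by their mean level per length, the WT brains ran from Txnrd1 at 172 TPM through Hmox2 at 91.9, Keap1 at 49.3, Gclc at 30.0, Gsr at 28.4, Gclm at 26.7, Nfe2l2 at 15.7, Hmox1 at 14.2 and Srxn1 at 13.4 to Nqo1 at 3.08 TPM. Gclc, Gsr and Gclm overlapped with their neighbours in this order over the 3 brains, as did Nfe2l2, Hmox1 and Srxn1. In KO, Hmox1 stood the third, at 63.7 ± 10.1 TPM (SD, n = 3), behind Txnrd1 at 167 and Hmox2 at 86.9 TPM. Its KO range of 52.8 to 72.8 TPM lay above that of Keap1, 48.5 to 51.8 TPM, and below that of Hmox2, 84.8 to 88.6 TPM.

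The tables also give for each gene a transcript length weighted by the share of its isoforms. Hmox1, Nqo1, Gclm, Srxn1 and Gsr are listed with 1 transcript each, so this length is fixed. For the other 5 the length differed between libraries by 43.2 bases at most, in Keap1, where KO 2 had 3407 bases and the other libraries 3364 to 3378. For Nfe2l2 the range was 11.9 bases and for Txnrd1, with 4 listed transcripts, 8.29 bases.

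Regulators of NRF2 held no call. Of the 16 on the list, all tested, none rose or fell by edgeR, with 1 higher and 3 lower at an unadjusted p below 0.05 and a median log2 fold change of -0.02. DESeq2 called Mafk and Rbx1 lower, and limma-voom called neither. Rbx1, the RING subunit of the CUL3 ligase, lay between 106 and 112 CPM in WT and between 85.9 and 89.5 CPM in KO (log2 fold change -0.31 ± 0.06, edgeR adjusted p = 0.0677). Mafk, a small MAF partner of NRF2 and BACH1, had -0.42 ± 0.09 (adjusted p = 0.105). Bach1, which represses Hmox1 until heme binds it, and Cul3 were chosen for their role after their values were seen. Bach1 lay between 94.7 and 111 CPM in WT and between 95.2 and 103 CPM in KO (log2 fold change -0.04 ± 0.08), and Cul3 had -0.11 ± 0.08.

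Other NRF2 targets held no edgeR call either. Of 27 listed, 26 were tested, 20 had a positive fold change and 6 a negative one, with a median of 0.13. There were 5 higher and 1 lower at an unadjusted p below 0.05, and DESeq2 called Abcc1, Ephx1, Gsta4, Tkt and Txn1 higher and Idh1 lower. Txn1, the thioredoxin that Txnrd1 reduces, lay between 63.3 and 66.8 CPM in WT and between 77.8 and 83.0 CPM in KO (log2 fold change 0.31 ± 0.06, edgeR adjusted p = 0.0720). Abcc1, which exports glutathione conjugates, had 0.36 ± 0.08 (adjusted p = 0.104). Slc7a11, the cystine importer that NRF2 and ATF4 both activate, was chosen after its values were seen. Slc7a11 stood at 15.2, 28.05 and 11.5 CPM in WT and at 29.1, 22.6 and 64.7 CPM in KO, so the groups overlapped (1.09 ± 0.49, adjusted p = 0.286). WT 2 and KO 3, where it was highest in each group, also had the highest summed meninges markers of their groups, 2672 and 5256 CPM, whose part in the result was not tested. Its promoter, printed above, holds 2 C/EBP-ATF elements, 1 on each strand, and an antioxidant response element, TGAGAAAGC, on the strand opposite the gene.

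Genes that make and use glutathione held 2 edgeR calls, both higher, while DESeq2 called 2 higher and 1 lower. Of 22 tested genes, 15 had a positive fold change, and the median was 0.07. Chac1, which breaks glutathione down and is a target of the ATF4 branch of the integrated stress response, stood at 1.80, 2.99 and 2.06 CPM in WT and at 19.4, 16.9 and 17.7 CPM in KO. It rose by 2.99 ± 0.21 on the log2 scale (edgeR adjusted p = 0.00254) and its promoter holds the C/EBP-ATF element shown. The windows searched for Slc3a2 and for Abcb6, described further on, held neither kind of element. The Slc3a2 start lies 9472 bases inside the gene, so the bases before its outermost start were not searched. Slc3a2, the heavy chain shared by SLC7A11 and other amino acid exchangers, stood at 87.2, 93.0 and 85.6 CPM in WT. It reached 188, 177 and 195 CPM in KO (1.08 ± 0.07, adjusted p = 0.00197). Ggt7 and Glrx2 had log2 fold changes of -0.73 ± 0.13 and -0.25 ± 0.09 and did not pass (edgeR adjusted p = 0.0678 and 0.195). Ggt7 lay between 44.9 and 54.6 CPM in WT and between 24.7 and 32.7 CPM in KO, and DESeq2 called it lower.

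Among 20 genes of thioredoxin, peroxiredoxins and superoxide removal, Sesn2 alone was called. Sesn2, a stress-induced leucine sensor that also promotes the degradation of KEAP1, lay between 6.96 and 7.10 CPM in WT and between 30.4 and 34.99 CPM in KO (log2 fold change 2.24 ± 0.09, edgeR adjusted p = 0.00103). Its promoter window held an antioxidant response element, TGACAGAGC, beginning 36 bases before the start, and no C/EBP-ATF element. Prdx6 and Prdx3, a cytosolic and a mitochondrial peroxiredoxin, had 0.54 ± 0.12 and 0.36 ± 0.10 (adjusted p = 0.104 and 0.142), and both were called higher by DESeq2. The median of the list was 0.14. Chac1, Slc3a2 and Sesn2 were called in each of the 6 fits without 1 library.

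Of 24 genes of heme and iron handling, Slc40a1 rose and Abcb6 fell, and the median was 0.10. Slc40a1, ferroportin, exports iron from cells. Slc40a1 stood at 19.7, 19.8 and 18.2 CPM in WT and at 29.8, 32.1 and 38.4 CPM in KO (log2 fold change 0.79 ± 0.11, edgeR adjusted p = 0.0390). Abcb6, an ATP-driven porphyrin transporter, went from 21.6, 25.6 and 22.6 CPM to 12.7, 14.4 and 11.4 CPM (-0.86 ± 0.12, adjusted p = 0.0392). Neither kept its call in any of the 6 fits without 1 library, where the adjusted p lay between 0.0642 and 0.168 for Slc40a1 and between 0.0632 and 0.238 for Abcb6.

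The products of heme oxygenase are taken up by biliverdin reductases and ferritin, and none of these genes passed the edgeR test. Blvra, a biliverdin reductase, lay between 4.70 and 5.23 CPM in WT and between 6.62 and 7.05 CPM in KO (log2 fold change 0.47 ± 0.12, adjusted p = 0.129). Aco1, the cytosolic aconitase that doubles as iron regulatory protein, had 0.22 ± 0.05 (adjusted p = 0.120), and DESeq2 called both higher. The following genes were chosen after their values were seen. Blvrb had 0.68 ± 0.26, the ferritin chains Fth1 and Ftl1, whose reads can be shared with pseudogene copies, 0.30 ± 0.10 and 0.18 ± 0.08, and Alas1, the entry enzyme of heme synthesis, 0.05 ± 0.07.

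Over the 108 tested genes of these 5 lists, 4 rose and 1 fell, against 0.511% and 0.492% of all tested genes, and the median log2 fold change was 0.09. Groups did not overlap with KO higher for 28 of them (25.9%, against 14.6% of all tested genes) and with KO lower for 12 (11.1%, against 2055 of all 15848 tested genes). Since the lists were chosen with earlier results of these data known, these shares are a description and were not tested.

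**Figure D3:**
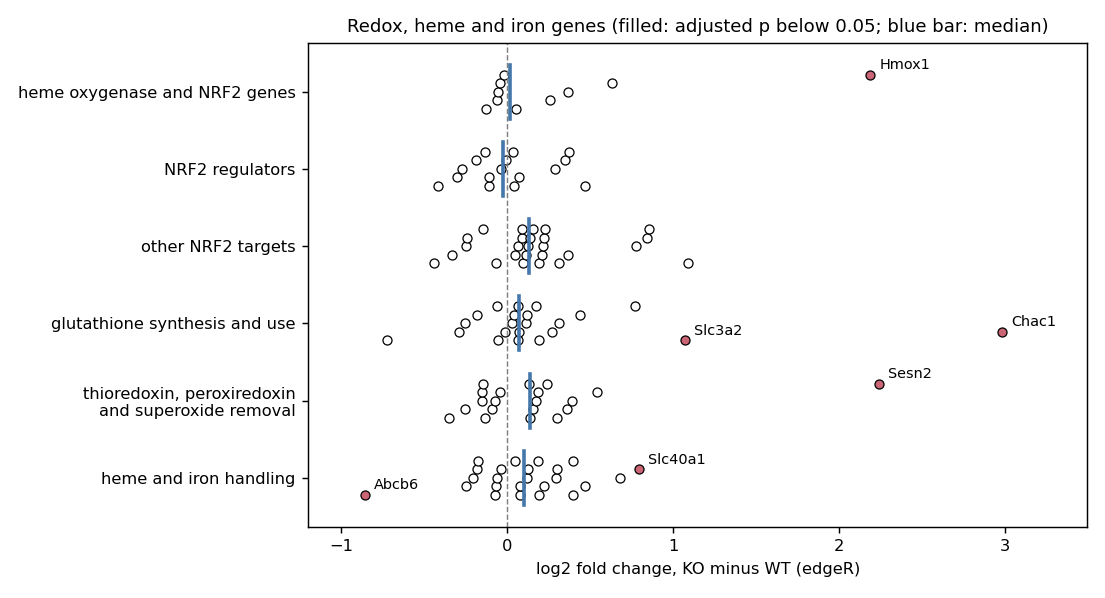
Log2 fold change of KO against WT (x axis) for each tested gene, in rows by list. Filled points passed the edgeR test and carry their symbol, and blue bars are list medians, between -0.02 and 0.14. Chac1, Sesn2 and Hmox1 lie above 2, and most other points lie between -0.5 and 0.5.

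Hmox1 is also strongly expressed by macrophages and can be induced in endothelium, and the summed markers of some such cells were higher in the KO libraries. In whole tissue, more or fewer cells of a type and more or less RNA per cell cannot be told apart. Microglia markers summed to 81.5, 128 and 95.3 CPM in WT and to 151, 160 and 212 CPM in KO, without overlap. All 14 had positive fold changes, with a median of 0.86, and none was at 0 in any library. The groups did not overlap with KO higher for 10 of them, against 14.6% of all tested genes. P2ry12, Ptprc, Fcer1g and Tmem119 overlapped. Tmem119 stood at 2.81, 8.93 and 4.12 CPM in WT and at 2.01, 1.94 and 19.65 CPM in KO, so only KO 3 lay above the WT brains. Only Cx3cr1 and Fcrls, the second named after its values were seen, were called higher (log2 fold change 1.03 ± 0.15 and 0.91 ± 0.12, edgeR adjusted p = 0.0395 and 0.0369), while Csf1r had 0.56 ± 0.20 (adjusted p = 0.208). DESeq2 called 9 of the 14 higher, against 811 of all 15848 tested genes.

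The summed levels of border macrophage markers, led by Stab1, Mrc1 and F13a1, overlapped between the groups (64.0 to 120 CPM in WT and 83.9 to 178 CPM in KO). Of its 7 tested markers none was called by edgeR, DESeq2 or limma-voom, and none had an unadjusted edgeR p below 0.05. Endothelium markers, led by Kdr, Cdh5 and Cldn5, summed to 228 to 269 CPM in WT and 297 to 407 CPM in KO, with 8 of 8 fold changes positive. None was called by edgeR, 6 had an unadjusted edgeR p below 0.05, and DESeq2 called 4 higher (811 of all 15848 tested genes). The sum of the 11 erythroid markers in the tables overlapped, at 314 to 894 CPM in WT and 703 to 1003 CPM in KO. The highest WT sum, in WT 1, held 374 CPM of the embryonic globin Hbb-y, which lay between 1.65 and 28.2 CPM in the other 5 libraries. Of the 11 markers, 8 had positive fold changes and 3 negative ones, Hbb-y, Hba-x and Hbb-bh1 (-2.89 ± 1.73, -1.64 ± 1.40 and -1.54 ± 1.40). The groups did not overlap with KO higher for 4 of the 11, against 14.6% of all tested genes. These were the globins Hba-a1, Hba-a2, Hbb-bs and Hbb-bt, which include near-identical copies. Hba-a1 lay at 162 to 336 CPM in WT and 360.0 to 542 CPM in KO. For Hbb-bs the gap was narrow, between 78.3 CPM in WT 2 and 78.7 CPM in KO 2. No erythroid marker was called by edgeR, with 2 at an unadjusted p below 0.05, and DESeq2 called 2 higher. Their part in the Hmox1 result was not tested.

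Hmox1 differed more between the groups than any of these sums. The mean microglia sum was 1.71 times as high in KO as in WT, the endothelium sum 1.36 times and the border macrophage sum 1.32 times, against 4.56 times for the mean Hmox1 level. Divided by the microglia sum, a measure chosen after the values were seen, Hmox1 was 0.107, 0.0700 and 0.0552 in WT and 0.190, 0.223 and 0.191 in KO. That ratio did not overlap between the groups, nor did the ratios to the border macrophage, endothelium, erythroid and neural sums. The ratio to the meninges sum overlapped, at 0.0153 in WT 1 and 0.0077 in KO 3. Whether Hmox1 changed within any 1 cell type was not tested.

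**Figure D4:**
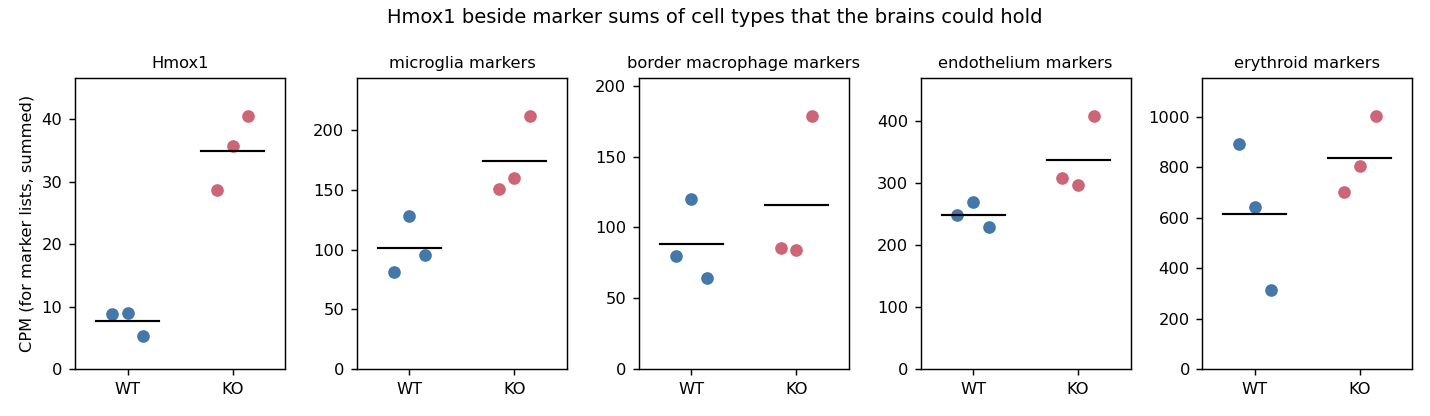
Hmox1 level and summed levels of 4 marker lists in CPM (linear axes from 0). Points are libraries in the order of their replicate number and bars are group means. Microglia and endothelium sums lie higher in every KO library, border macrophage and erythroid sums overlap, and Hmox1 has the widest gap between the groups relative to its level.

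The genes whose pattern over the 6 libraries was most like that of Hmox1 were named by the smallest root mean square difference of their centred log2 CPM. They were Atf3, Sesn2, Stc2, Ccl9 and Atf5, with differences of 0.28, 0.30, 0.32, 0.33 and 0.37 on the log2 scale. All but Ccl9 (edgeR adjusted p = 0.112) were called higher. Atf3 and Atf5 are transcription factors of the stress response, Stc2 is a secreted glycoprotein and Ccl9 a chemokine. Atf3, the closest, stood at 0.779, 0.705 and 0.692 CPM in WT and at 2.49, 2.75 and 3.00 CPM in KO. Since Hmox1 itself separates the groups, this measure selects genes that are higher in KO by a similar fold.

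**Figure D5:**
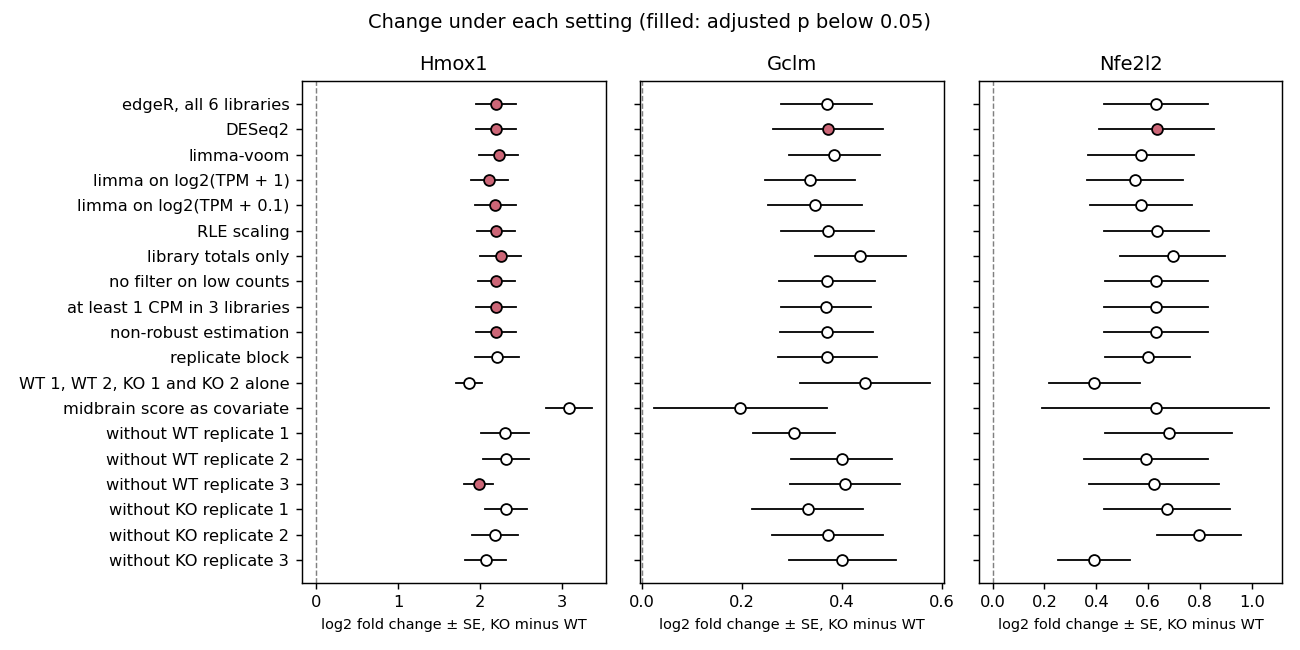
Log2 fold change ± SE of KO against WT (x axis) for Hmox1, Gclm and Nfe2l2 under each setting, with filled points at an adjusted p below 0.05. Hmox1 lies between 1.86 and 3.08 under the other settings, and Gclm and Nfe2l2 are filled only with DESeq2.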

How the data were processed

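Messenger RNA was sequenced from 3 WT and 3 E4f1 KO mouse brains at E14.5. Per the submitters' processing notes, the tools were STAR 2.5.3a, RSEM 1.2.28, Trimmomatic and FastQC, and the builds GRCm38 and mm10, with no order or settings given. The authors' files hold, per the file headers, an expected count per gene (read pairs, shared out by RSEM where several transcripts fit), a deposited TPM, and a transcript length weighted by isoform share.

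Expected counts were rounded and tested with edgeR (version 4.0.16), with filterByExpr, TMM and the robust quasi-likelihood F test, two-sided, adjusted by Benjamini and Hochberg over 15848 genes. SEs correspond to the F statistic. Ratios were tested by exact permutation over 20 splits. Alternatives were DESeq2 (version 1.42.0), limma (version 3.58.1), with voom or on log2(TPM + 1) and log2(TPM + 0.1), other scalings and filters, a replicate block, a midbrain covariate and fewer libraries. Replicates of a group differed beyond sampling noise (chi-square per degree of freedom 45.1 to 175).

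The 10 genes and the lists were chosen with earlier results of these data known. The rule for named genes took the 10, up to 4 called genes per pathway list with the largest change, up to 2 uncalled genes with the smallest p and at least 1 CPM where fewer than 4 were called, the 3 most abundant markers per marker list and the 5 genes most like Hmox1. Positions and promoters come from RefSeq on GRCm38. Motifs were chosen after values were seen.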

Additional observations from a re-analysis of the deposited data

How the results depend on the processing

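The count of 159 changed genes (81 higher, 78 lower) became 1525 with DESeq2 (811 higher, 714 lower). It lay between 36 and 82 with 1 library left out, and was 36 without KO 1. Scaling by library totals alone gave 123 higher and 63 lower. Of the 10 genes, 1 was called by edgeR, 3 by DESeq2 (Hmox1, Gclm and Nfe2l2) and between 0 and 1 with 1 library left out. Of the 108 other pathway genes, 5 were called by edgeR, 19 by DESeq2 and 3 in each fit with 1 library left out. With WT 1, WT 2, KO 1 and KO 2 alone, and with the midbrain score as a covariate, edgeR called 0 genes in all 3 sets. At an unadjusted p below 0.05 there were 1546, 2 and 16, and 745, 1 and 14. E4f1 was not called in either fit, and the midbrain score did not overlap between the groups. The cause of the lost calls was not tested.

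The replicate block called 66 genes, 0 of the 10 (4 at an unadjusted p below 0.05, Hmox1 at an adjusted p of 0.0636) and 3 pathway genes. The titles number the brains 1 to 3 in both groups, but the deviations of same-numbered libraries correlated at 0.126, 0.172 and 0.0081 across genes and WT 3 did not correlate best with KO 3, so the numbers were not taken to pair the samples. The 3 ratios kept their positive difference under the replicate block (2.27, 0.42 and 0.55, exact sign-flip p = 0.25, the smallest possible) and under all other settings run.

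Hmox1, Gclm, Gsr, Nfe2l2 and Keap1 had positive fold changes in all 18 alternatives. The 5 genes near 0 changed sign in some. By library totals the log2 fold changes were 0.0027 for Hmox2, 0.0082 for Nqo1, 0.020 for Gclc and 0.046 for Txnrd1. With 4 libraries they were 0.0054 for Gclc and 0.0033 for Txnrd1, and with the midbrain score 0.033 for Hmox2, 0.33 for Nqo1 and 0.21 for Srxn1. With 1 library left out, Txnrd1 ran from -0.093 to 0.029, Nqo1 from -0.21 to 0.17 and Srxn1 from -0.21 to 0.0037. Txnrd1 reached 0.0079 (WT 1), 0.029 (WT 3) and 0.014 (KO 2), Nqo1 0.17 (WT 2) and 0.038 (KO 1), and Srxn1 0.0037 (WT 2). Of the 10 genes, Nqo1 had the fewest read pairs, 83 to 108 per library.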
